A study of Drosophila melanogaster with 8 samples.

Results

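The gene of the Drosophila heterochromatin protein HP1a (FBgn0003607, also known as Su(var)2-5) was examined together with its paralogs HP1b and HP1c and with 7 genes for proteins that bind HP1a: HP4, HP5, Su(var)2-HP2, Su(var)3-7, Lhr, ADD1 and Hmr. The genes were chosen by symbol, and all 10 were found among the 13776 genes of the deposited tables. Whole ovaries were taken from Drosophila melanogaster females that were 0 to 4 days old, and their poly(A)+ RNA was sequenced. The 2 libraries labelled HP1-SKD came from F1 females of a cross of tj-Gal4 to HP1a RNAi, and the 2 control libraries from F1 females of a cross of tj-Gal4 to the VDRC line #60000. The tj-Gal4 driver, which both crosses carry, is active in somatic cells of the ovary and not in the germline. Each library, called a biological replicate by the labels, came from about 100 pooled ovaries, so that germline and somatic RNA were measured together. The crosses differ in the line mated to tj-Gal4 as well as in the RNA interference, and these cannot be told apart. A further 2 Dam-HP1 and 2 Dam only samples of the series, which map HP1 binding, were not used here.

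HP1 proteins carry a chromodomain, which binds methylated histone H3, and a chromoshadow domain, through which they pair and recruit partner proteins. HP1a is the founding member and is concentrated at pericentric heterochromatin, telomeres and the fourth chromosome; it is needed for silencing of genes placed near heterochromatin and of transposons. HP1b is found in both heterochromatin and euchromatin, and HP1c mainly in euchromatin. The partners were found through their binding to HP1a or through their effect on the silencing of genes placed near heterochromatin.

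The summed counts per library lay between 18671653 and 38330979, and 8798 genes had enough counts to be compared. The transcript of HP1a itself did not fall at an adjusted p under 0.05 in whole-ovary RNA (edgeR). The knockdown was thus not seen in it, and the libraries are called knockdown-labelled throughout. Markers of the follicle cells, which form the somatic epithelium around each egg chamber, were lower in these libraries: of 19 tested, 0 were higher and 14 lower, with a median log2 fold change of -2.88. Over 20 such markers the summed level was 282 and 305 TPM in the knockdown-labelled libraries and 446 and 378 TPM in the controls. Of 38 germline genes 8 were higher and 4 lower, where 11.8% of all tested genes were higher and 16.1% lower (27.9% in either direction). Their median log2 fold change was 0.13. With scaling to germline genes it was -0.08, but these same genes set that scale, so a median near 0 was fixed in advance. Their summed level was 6562 and 6558 TPM in the knockdown-labelled libraries and 3946 and 4384 TPM in the controls. Sums of TPM carry a shift of the scale: the median tested gene was 1.47-fold higher in TPM in the knockdown-labelled libraries. Eggshell genes, which mark late egg chambers, summed to 3732 and 27560 TPM in knockdown-labelled 1 and 2, and to 25850 and 84300 TPM in control 1 and 2. The part of cell composition in the values below was not tested, and in whole-ovary RNA fewer cells of a type and less RNA per cell cannot be told apart.

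HP1a had by far the highest level of the 10 genes. Levels of different genes were compared in TPM (transcripts per 1000000), a unit that corrects for transcript length. HP1a stood at 402 and 406 TPM in knockdown-labelled 1 and 2, and at 303 and 285 TPM in control 1 and 2, above 95.9% of the tested genes in the controls. HP4 was next, with 142 and 139 TPM in the knockdown-labelled libraries and 69.0 and 69.5 TPM in the controls. HP1b followed with 116 and 101 TPM against 55.8 and 55.4 TPM in the controls. No library of HP1a or HP4 overlapped with the gene below it in either group. This order depends on the lengths behind the deposited TPM, from which the deposited effective lengths differ for some genes. In control 1 the deposited length of HP4 was 197 nt, against 394 nt implied by its counts and TPM, and that of HP5 was 1162 nt against 3389 nt. Whether HP4 keeps its place with the deposited lengths was not tested.

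The other genes were closer together. In the controls the ranges of HP1b, HP5, HP1c, Su(var)3-7, ADD1 and Su(var)2-HP2 overlapped from each gene to the next, with means that ran from 55.6 TPM (SD 0.315, n = 2) for HP1b to 18.0 TPM (SD 3.73, n = 2) for Su(var)2-HP2. Hmr and Lhr had the lowest levels, at 8.29 TPM (SD 3.31) and 5.36 TPM (SD 2.12), with overlapping ranges. In the knockdown-labelled libraries the order differed in one place: Su(var)3-7 (102 TPM, SD 6.02) stood above HP1c (58.5 TPM, SD 2.38) with no overlap, whereas in the controls HP1c had 45.1 TPM (SD 1.86) and Su(var)3-7 39.4 TPM (SD 15.8). All 10 genes had higher TPM in both knockdown-labelled libraries than in either control, but 66.1% of all tested genes did so too. The median tested gene was 1.47-fold higher in TPM, a log2 shift of 0.56 common to the scale. Changes between groups are therefore given from counts scaled by TMM, a scaling that holds the bulk of genes level. On that scale the median log2 fold change of all tested genes was 0.02.

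**Figure D1:**
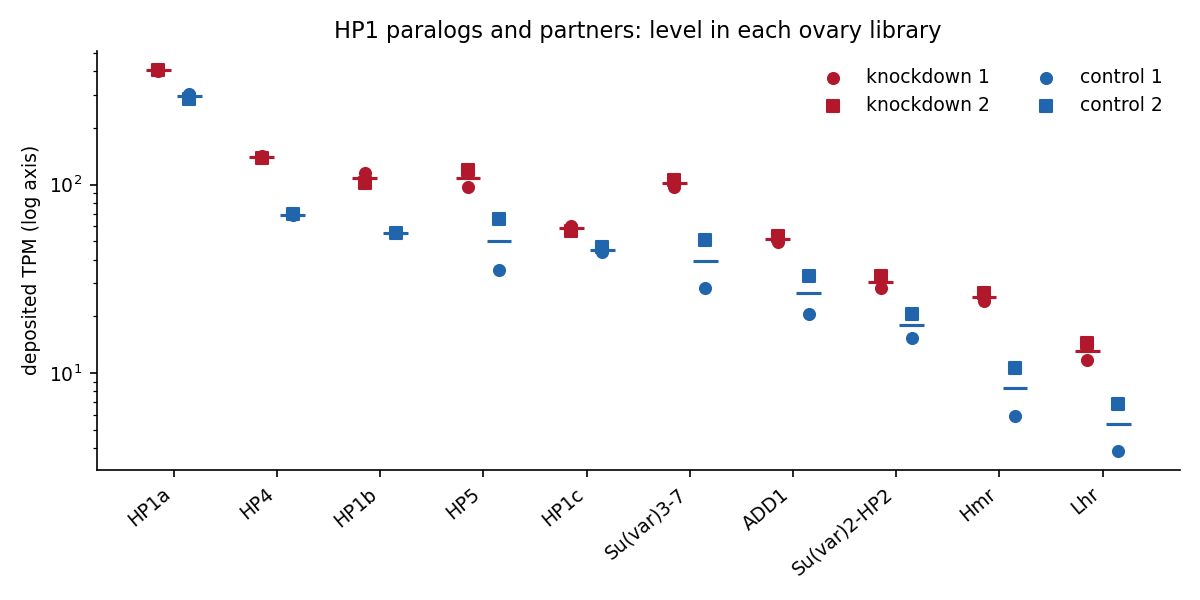
Deposited TPM (log axis) of the 10 genes in each library, ordered by the control mean; red points are the libraries labelled knockdown and blue points the controls, with circles for replicate 1, squares for replicate 2 and a bar at the mean. HP1a lies apart at the top, and Hmr and Lhr are lowest; red points lie above blue ones for every gene, as for 66.1% of all tested genes.

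Among the 3 HP1 paralogs, HP1a and HP1c stayed near their control level and HP1b was higher in both knockdown-labelled libraries. Counts per 1000000 reads after TMM scaling (CPM) put HP1a (on 2L) at 230 CPM (SD 8.26, n = 2) in the knockdown-labelled libraries and 241 CPM (SD 17.4, n = 2) in the controls. Its log2 fold change was -0.06, with a 95% interval of -0.35 to 0.22 (edgeR's quasi-likelihood test, adjusted p = 0.677). The groups overlapped, and under TMM a fall in whole-ovary RNA larger than the lower bound lies outside this interval. The log2 fold change of HP1a was lower with scaling to the upper quartile (-0.16, adjusted p = 0.339) or to germline genes (-0.27, adjusted p = 0.154). The medians of all tested genes there were -0.08 and -0.18.

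HP1b (FBgn0030082, on X) had 72.7 and 65.4 CPM in knockdown-labelled 1 and 2 and 52.3 and 49.8 CPM in control 1 and 2. The groups did not overlap, and its log2 fold change was 0.44 (SE 0.12, 95% interval 0.12 to 0.75), which missed the threshold with an adjusted p of 0.0542. The value for HP1b was 0.48 without control 1, 0.44 without control 2, 0.38 without knockdown-labelled 1 and 0.52 without knockdown-labelled 2. It passed with DESeq2 (0.46, adjusted p = 0.0272). It did not pass with scaling to the upper quartile (0.34, adjusted p = 0.104) or to germline genes (0.23, adjusted p = 0.209). Nor did it pass with the deposited effective lengths as an offset (0.42, adjusted p = 0.0725). HP1c (FBgn0039019, on 3R), whose protein works with the zinc finger proteins WOC and ROW at euchromatic genes, had 31.9 and 31.2 CPM in the knockdown-labelled libraries and 34.6 and 35.6 CPM in the controls. Both values were below both controls, and the log2 fold change of -0.16 (95% interval -0.48 to 0.17, adjusted p = 0.368) did not pass. With library size alone HP1a (0.17) and HP1c (0.08) were above 0, where the median of all tested genes was 0.25.

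The balance of the paralogs can be read within a library, where it does not depend on scaling. HP1a took 69.6% and 72.0% of the summed TPM of the 3 genes in knockdown-labelled 1 and 2, and 75.3% and 73.7% in control 1 and 2. HP1b took 19.98% and 18.0% in the knockdown-labelled libraries and 13.9% and 14.3% in the controls, and HP1c 10.4% and 10.1% against 10.9% and 12.02%. Every share stood apart between the groups. The mean share of HP1a was 70.8% (SD 1.66, n = 2) against 74.5% (SD 1.14, n = 2), a difference of -3.69 percentage points, and that of HP1b differed by 4.89 points. An exact two-sided permutation test gave p = 0.333 for each, which is the smallest that 2 against 2 libraries allow (0.444 adjusted over the 12 shares and ratios compared). The ratio of HP1b to HP1c was 1.92 and 1.78 in the knockdown-labelled libraries and 1.27 and 1.19 in the controls (exact permutation p = 0.333). The ratio of HP1c to HP1a overlapped, at 0.150 and 0.140 in the knockdown-labelled libraries and 0.144 and 0.163 in the controls (exact permutation p = 0.667). Of the 12 shares and ratios 9 stood apart between the groups and 3 overlapped. Beside this, 39.3% of all tested genes lay above both controls in CPM in both knockdown-labelled libraries, and 37.7% below both. The 12 quantities also share genes, so they are not independent.

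**Figure D2:**
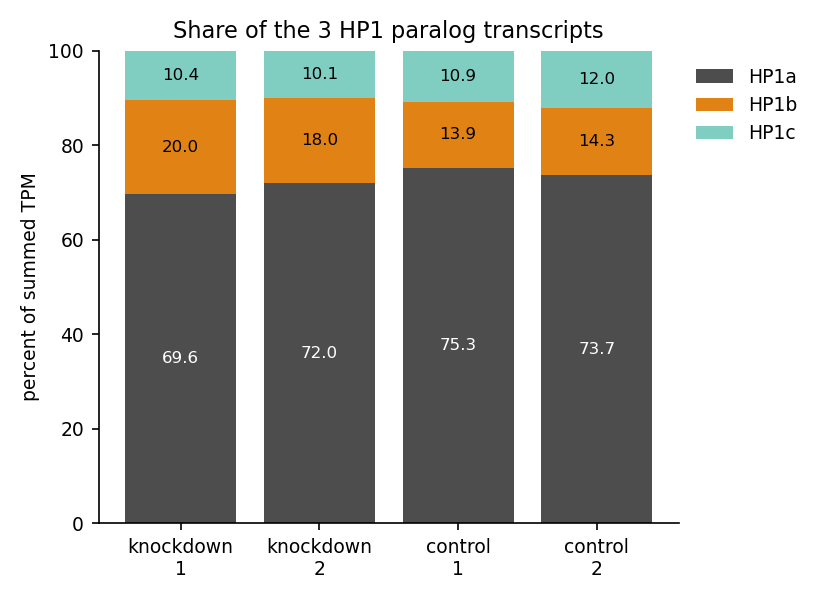
Share of HP1a, HP1b and HP1c in their summed TPM (percent) in each library, with the libraries labelled knockdown on the left. The HP1b share is 19.98% and 18.0% in the libraries labelled knockdown and 13.9% and 14.3% in the controls.

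The germline paralog gene rhi, whose protein marks piRNA clusters, had 36.9 and 36.6 TPM in the knockdown-labelled libraries and 14.2 and 20.5 TPM in the controls (log2 fold change 0.55, SE 0.20, adjusted p = 0.0849). HP1D3csd had 0.951 and 0.755 TPM in the knockdown-labelled libraries and 1.04 and 0.757 TPM in the controls. HP1e, known from testis, was listed at 0 in all 4 libraries. HP1D3csd and HP1e had too few counts to be tested.

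Of the 10 genes, 2 rose (Hmr and HP4) and 0 fell at an adjusted p under 0.05, where 27.9% of all tested genes passed, 11.8% higher and 16.1% lower. At an unadjusted p under 0.05, 4 were higher (Hmr, HP4, HP1b and Su(var)3-7) and 0 lower, where 48.1% of all tested genes lay under it, 23.3% higher and 24.9% lower. DESeq2 called 4 higher and 0 lower, beside 19.0% and 18.4% of all genes it tested. Both knockdown-labelled libraries lay above both controls in CPM for 8 of the 10, against 39.3% of all tested genes, and below both for HP1c alone, against 37.7%. The median log2 fold change of the 10 was 0.46, beside 0.02 over all tested genes. Without knockdown-labelled 1 or without knockdown-labelled 2, 0 of the 10 passed with edgeR, while 2 and 1 were higher and 0 lower at an unadjusted p under 0.05, beside 11.5% and 12.1% of all genes higher; 220 and 336 genes passed in all. Without control 1, 4 of the 10 rose, where 14.6% of all genes did, and without control 2, 8 rose, where 27.5% of all genes did and 49.2% passed in either direction.

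Hmr and Lhr encode partners that bind one another and HP1a, and both are known for the death of hybrids between Drosophila melanogaster and Drosophila simulans. Hmr (FBgn0001206, on X) had 1594 and 3600 counts in knockdown-labelled 1 and 2 and 539 and 991 counts in control 1 and 2, which is 77.2 and 88.4 CPM against 28.4 and 49.2 CPM. It rose 2.13-fold (adjusted p = 0.0443), a log2 fold change of 1.09 (SE 0.28) that was larger than that of 94.0% of the tested genes. Control 1 lay far below control 2, and the log2 fold change was 0.76 without control 1 and 1.59 without control 2; it was 1.21 without knockdown-labelled 1 and 1.00 without knockdown-labelled 2, where it did not pass (adjusted p = 0.101 and 0.130).

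Lhr (FBgn0034217, on 2R) rested on few reads, 164 and 411 counts in the knockdown-labelled libraries and 74 and 135 in the controls. At 7.94 and 10.1 CPM against 3.89 and 6.70 CPM the groups did not overlap, but its log2 fold change of 0.77 (SE 0.37, 95% interval -0.16 to 1.70, adjusted p = 0.156) did not pass. It was 0.43 without control 1 and 1.26 without control 2, where it passed (adjusted p = 0.0341). The TPM of Hmr was 2.05 and 1.85 times that of Lhr in the knockdown-labelled libraries and 1.54 and 1.55 times in the controls (exact permutation p = 0.333). Lhr overlaps EDTP in the reference table. The sources used here do not state whether counting used strand, so reads of such pairs may be split between them. EDTP had 89.0 and 93.0 TPM in the knockdown-labelled libraries and 40.03 and 54.8 TPM in the controls (log2 fold change 0.41, adjusted p = 0.108). HP1a also overlaps CG8419 (-0.93, adjusted p = 0.0867) and HP1c overlaps CG17141 (-0.74, adjusted p = 0.0613). ADD1 overlaps CG30036, which was not tested.

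HP4 and HP5 encode proteins found in HP1a complexes and located with HP1a at heterochromatin. HP4 (FBgn0035829, on 3L) was the most even gene between replicates, with 40.3 and 40.7 CPM in the knockdown-labelled libraries and 29.1 and 28.5 CPM in the controls. It rose 1.41-fold (adjusted p = 0.0444), a log2 fold change of 0.49 (SE 0.13). Its log2 fold change was 0.50 to 0.52 with each library left out in turn, but it did not pass without knockdown-labelled 1 (adjusted p = 0.255) or 2 (adjusted p = 0.288), nor with scaling to the upper quartile (0.39, adjusted p = 0.0730) or to germline genes (0.29, adjusted p = 0.140), nor with the deposited effective lengths as an offset (0.47, adjusted p = 0.0536). HP5 (FBgn0030301, on X) had 225 and 273 CPM in the knockdown-labelled libraries and 128 and 220 CPM in the controls. Control 2 nearly reached knockdown-labelled 1, and the log2 fold change of 0.52 (SE 0.28, 95% interval -0.18 to 1.22, adjusted p = 0.193) did not pass. It was 0.18 without control 1 and 1.01 without control 2, where it passed (adjusted p = 0.00800). The TPM of HP4 was 1.47 and 1.17 times that of HP5 in the knockdown-labelled libraries and 1.97 and 1.06 times in the controls, with overlap (exact permutation p = 1.0).

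Su(var)3-7 and Su(var)2-HP2 are dose-dependent partners of HP1a, the first with many zinc fingers. Su(var)3-7 (FBgn0003598, on 3R) had 287 and 321 CPM in the knockdown-labelled libraries and 130 and 221 CPM in the controls, with no overlap. Its log2 fold change was 0.79 (SE 0.26, 95% interval 0.12 to 1.46) and missed the threshold (adjusted p = 0.0739). It was 0.46 without control 1, 1.27 without control 2, 0.89 without knockdown-labelled 1 and 0.72 without knockdown-labelled 2. It passed with DESeq2 (0.81, adjusted p = 0.00931). It did not pass with scaling to germline genes (0.60, adjusted p = 0.105) or with the deposited effective lengths as an offset (0.60, adjusted p = 0.113). In each library the TPM of Su(var)3-7 was set against that of HP1a: the ratio was 0.242 and 0.261 in the knockdown-labelled libraries and 0.0930 and 0.178 in the controls (exact permutation p = 0.333). Su(var)3-7 overlaps TBC1D5, which had 23.2 and 27.0 TPM in the knockdown-labelled libraries and 16.3 and 16.7 TPM in the controls (log2 fold change 0.08, adjusted p = 0.686). Su(var)2-HP2 (FBgn0026427, on 2R) had 154 and 189 CPM in the knockdown-labelled libraries and 114 and 153 CPM in the controls, so that control 2 and knockdown-labelled 1 were almost equal (log2 fold change 0.36, 95% interval -0.12 to 0.85, adjusted p = 0.190). The value was 0.17 without control 1, 0.22 without knockdown-labelled 2, 0.23 with an offset for the implied transcript length, and 0.64 without control 2, where it passed (adjusted p = 0.0243). The TPM of Su(var)2-HP2 over that of HP1a was 0.0701 and 0.0810 in the knockdown-labelled libraries and 0.0506 and 0.0725 in the controls, with overlap (exact permutation p = 0.667).

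ADD1 (FBgn0026573, on 2R) encodes a protein with an ADD domain, a fold that reads the histone H3 tail, and binds HP1a. It had 145 and 160 CPM in the knockdown-labelled libraries and 89.5 and 137 CPM in the controls, with a log2 fold change of 0.43 (SE 0.22, 95% interval -0.13 to 0.99, adjusted p = 0.182). The groups did not overlap, with control 2 close to knockdown-labelled 1. The log2 fold change of ADD1 was 0.16 without control 1 and 0.81 without control 2, where it passed (adjusted p = 0.00510).

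**Figure D3:**
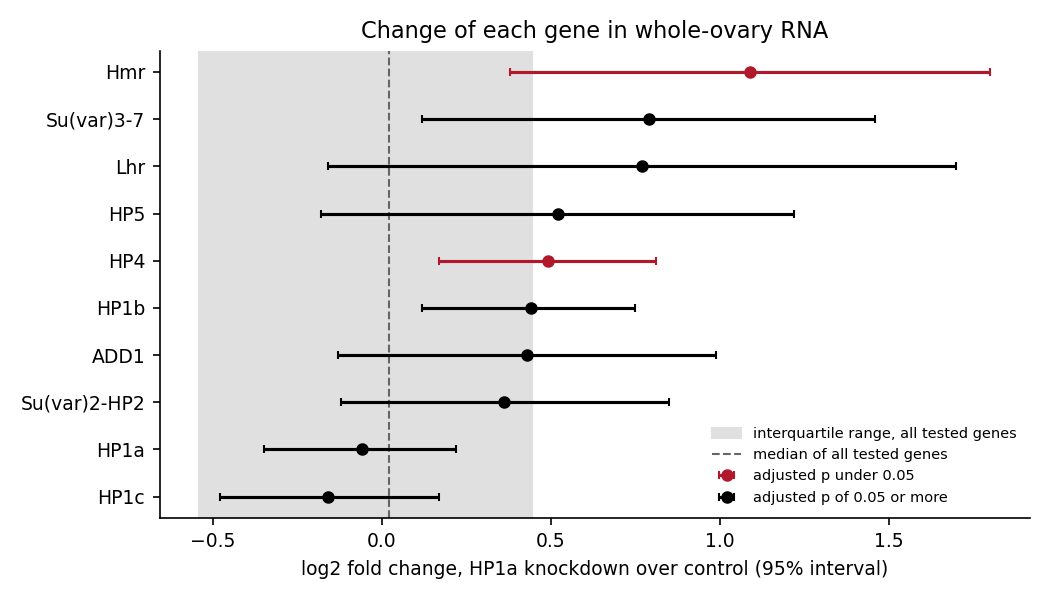
Log2 fold change of each gene, knockdown-labelled over control libraries, with its 95% interval from edgeR; red marks an adjusted p under 0.05, the dashed line the median of all tested genes (0.02) and the grey band their interquartile range. Hmr (1.09) and HP4 (0.49) are the genes in red, and HP1c (-0.16) and HP1a (-0.06) lie below the dashed line.

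The genes differed in how far replicates lay apart. For HP5, Su(var)3-7, Lhr, ADD1, Hmr and Su(var)2-HP2 control 1 was the lowest library, below control 2 by 0.79, 0.77, 0.78, 0.61, 0.79 and 0.43 on the log2 CPM scale. For HP4, HP1b, HP1c and HP1a the controls were within 0.15 of each other. Over the 10 genes the median gap between replicates was 0.16 in the knockdown-labelled libraries and 0.52 in the controls, beside 0.13 and 0.28 over all tested genes. In all tested genes 49.9% were higher in control 2 than in control 1, and among the 10 genes 7 were. The eggshell sums given above also differed between the libraries of each group, and their part in these gaps was not tested. The gene whose 4 values ran closest to those of Hmr among the other 9 was Su(var)3-7 (root mean square distance 0.153 on the log2 scale over 4 libraries), and Lhr and Su(var)3-7 were each other's closest (0.0656), as were HP1b and HP4 (0.0664) and HP1a and HP1c (0.0894).

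**Figure D4:**
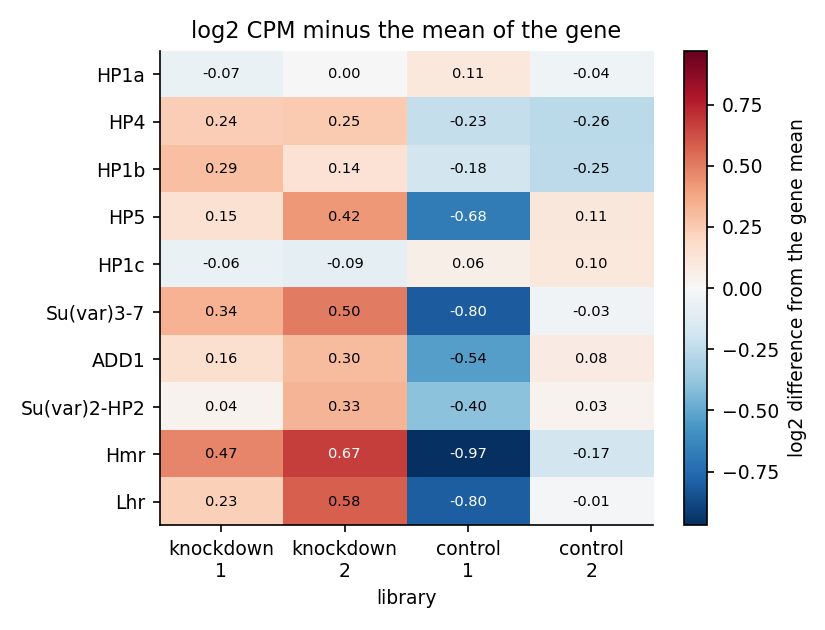
Log2 CPM of each gene in each library minus the mean of that gene over the 4 libraries; red is above and blue below the mean, with the libraries labelled knockdown in the left columns. Control 1 is the darkest blue for Hmr (-0.97), Su(var)3-7 (-0.80) and Lhr (-0.80), while HP4 and HP1b are alike within each group.

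HP1a itself had a nearly flat profile that many genes shared. Among 7562 other genes with at least 50 counts on average, the closest profiles over the 4 libraries were those of sds22, CG13850 and PolG1, with root mean square distances of 0.00532, 0.00992 and 0.0105 on the log2 scale and log2 fold changes of -0.06 to -0.07. With 4 values per gene, such closeness is a description.

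A measure of transcript choice was also read from the tables. Dividing the counts of a gene by its TPM gives a value proportional to the mean effective length of its transcripts, weighted by their estimated abundance. This value was put in nt with a constant for each library, set from the deposited effective lengths. For Su(var)2-HP2, for which RefSeq lists 2 transcripts, this length was 7593 and 7716 nt in knockdown-labelled 1 and 2 and 6912 and 7136 nt in control 1 and 2. The groups did not overlap, and the mean was 8.98% longer, a larger change than that of 97.5% of the 3305 genes whose length varied. For Su(var)3-7 it was 4092 and 4070 nt in the knockdown-labelled libraries and 4296 and 4207 nt in the controls, a change of -4.01%. Among the 3305 genes 16.6% were longer in both knockdown-labelled libraries and 32.7% shorter in both. For HP1a the length was 776 and 781 nt against 778 and 771 nt, with overlap, and HP5 overlapped as well. HP1c, HP4, Lhr and Hmr did not vary by more than 0.5%. This measure rests on the assignment of reads of 50 nt to transcripts, was looked at after the counts were known and has no test.

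Of 11 tested genes for other HP1a partners, 3 rose (Kdm4A, HIPP1 and Su(var)2-10) and 1 fell (vig), where 11.8% of all tested genes rose and 16.1% fell; the median log2 fold change was 0.30. The histone demethylase gene Kdm4A had 54.9 and 54.0 TPM in the knockdown-labelled libraries and 13.8 and 23.8 TPM in the controls (log2 fold change 1.01, SE 0.26, adjusted p = 0.0450). HIPP1, named for its binding to HP1 and insulator proteins, rose 1.71-fold (adjusted p = 0.0232; log2 fold change 0.78, SE 0.12), and the SUMO ligase gene Su(var)2-10 rose 1.59-fold (adjusted p = 0.0376; 0.67, SE 0.16). The gene vig fell 1.89-fold (adjusted p = 0.0310; log2 fold change -0.92, SE 0.19). The histone methyltransferase gene Su(var)3-9, whose product makes the mark that HP1a binds, had a log2 fold change of 0.03 (adjusted p = 0.866). Without knockdown-labelled 1 or 2, 0 of the 11 passed in either direction with edgeR, though 4 were higher and 1 lower at an unadjusted p under 0.05 in each, where 11.5% and 12.1% of all genes were higher. Without control 2, 8 rose and 1 fell, where 27.5% of all genes rose and 21.7% fell.

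Genes of the HP1c complex stayed near their control level. Of woc, row, Ubqn, dre4 and Ssrp, 0 of 5 passed in either direction with edgeR, and 0 had an unadjusted p under 0.05 with edgeR or an adjusted p under 0.05 with DESeq2. Over all tested genes those shares were 27.9%, 48.1% and 37.4%, and 5 genes are few to set against them. Their log2 fold changes ran from -0.13 (woc, adjusted p = 0.450) to 0.18 (Ubqn, adjusted p = 0.279), with a median of -0.03; with library size alone 1 of the 5 rose and their median was 0.21. The gene woc had 120 and 119 TPM in the knockdown-labelled libraries and 92.1 and 95.2 TPM in the controls, and Ubqn 224 and 216 TPM against 136 and 132 TPM.

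Set against the median of all genes, 8 of the 10 genes lay above it under TMM and under each of the 17 alternatives, with all 10 above it in limma-trend on TPM without a filter. HP1a lay 0.15 below to 0.18 above that median and HP1c 0.22 below to 0.09 above it. Hmr lay 0.73 to 1.53 above it and HP4 0.43 to 0.74. The ranges of the genes with wide control gaps were broad, with 0.40 to 1.20 above the median for Lhr and 0.15 to 0.95 for HP5.

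**Figure D5:**
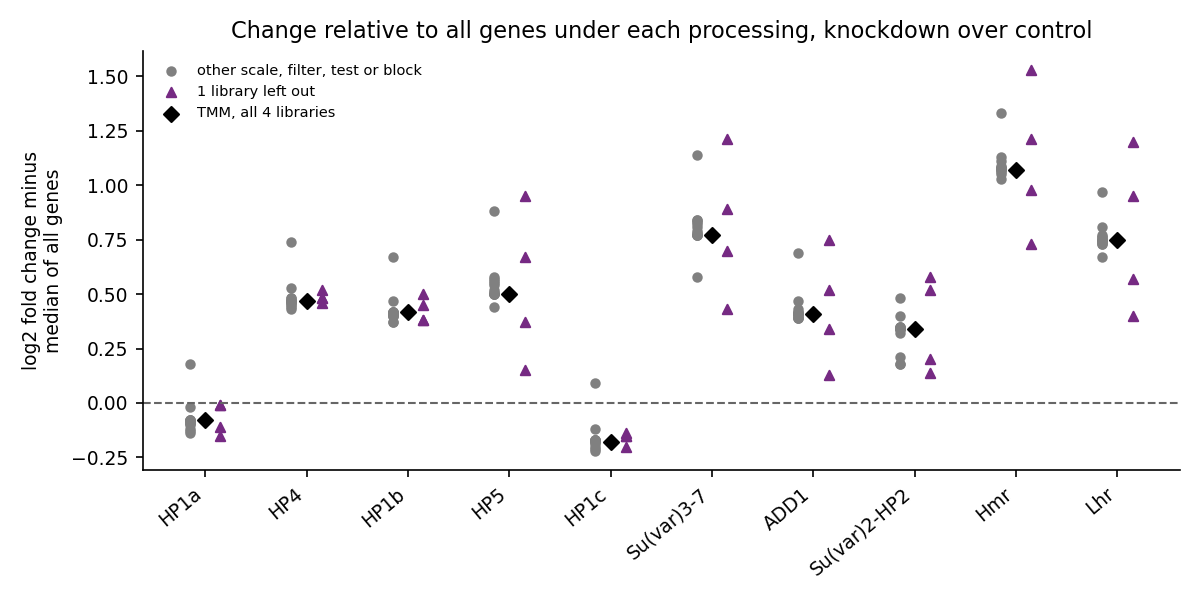
Log2 fold change of each gene, knockdown-labelled over control, minus the median of all genes under the same processing; diamonds are TMM with all 4 libraries, grey points other scales, filters, tests, lengths or the block, and triangles fits with 1 library left out. Hmr is the highest of the 10 in each setting (0.73 to 1.53), and HP1a and HP1c lie at or below the dashed zero line in all but 1 grey point each.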

How the data were processed

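Poly(A)+ RNA of whole ovaries was read from one end over 50 nt, per the labels' protocols. The submitters' processing notes name DESeq2, HISAT2, HTSeq and Salmon, and the builds dm3 and BDGP5; versions are not given in the sources used here. The deposited tables give expected counts (estimated reads per gene, not normalized) and TPM (per length and per 1000000, summing to 1000000 in each library), per the file headers. The deposited effective lengths matched the length implied by counts and TPM within 1% for 41.5% to 42.4% of genes. They therefore served only as an offset in an alternative and to set the constant that puts the implied lengths in nt.

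Expected counts were rounded and analysed in R 4.3.3 with edgeR 4.0.16 over all genes kept by filterByExpr (8798 kept, 4978 not), with TMM scaling, the quasi-likelihood F test without a block and Benjamini-Hochberg adjustment over all tested genes at 0.05; limma 3.58.1 and DESeq2 1.42.0 were alternatives. Log2 fold changes are knockdown-labelled over control; each SE is their size over the square root of F, and intervals are at 95%. The fit was tested on simulated data. The p-values rest on 2 libraries a group. Symbols came from a gene table that matched 13484 of 13776 genes, and chromosome arms, transcript numbers and overlapping genes from the RefSeq table of Release 6.

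HP1a is the name in the labels for the gene with the FlyBase symbol Su(var)205. The 10 genes, the other lists and the tests were chosen with earlier results of these data known. Named beside the 10 genes are the up to 4 genes with the smallest adjusted p in each other list, and the 3 profiles closest to HP1a. Su(var)3-9, D1, Trl, ttk, dome and the overlapping genes were chosen after their values were seen. Some list members, among them sov, Orc1 and tea, were not analysed here. The domain list and the DamID samples were not used here, since no annotation of their build was used.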

Additional observations from a re-analysis of the deposited data

How the results depend on the processing

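The number of HP1 genes that rose depended on the scale, the test and the library left out, while 0 fell under each of the 17 alternatives. It was 5 with library size alone, 1 with the upper quartile, 1 with scaling to germline genes, 1 with the deposited effective lengths as an offset, 4 with DESeq2, 10 with limma-trend on log2(TPM + 0.5) or log2(TPM + 0.1), 8 with limma-trend without a filter, and 0 to 8 with 1 library left out. The number of all genes called was 4911, 4887 and 4615 in those 3 limma-trend fits, and 220 to 4543 with 1 library left out. The median log2 fold change of the 10 genes was 0.70 with library size alone, 0.99, 1.00 and 0.99 in the limma-trend fits and 0.31 to 0.72 with 1 library left out; the medians of all genes in those fits were 0.25, 0.58, 0.59 and 0.28, and 0.00 to 0.06. Higher genes made up 42.4% of calls under TMM, 71.2% with library size alone, 21.6% with germline scaling and 88.7%, 88.8% and 86.5% in the limma-trend fits. HP1a changed sign with library size alone (0.17), in each limma-trend fit (0.46) and without control 1 (0.02, the highest with 1 library left out, where the lowest was -0.09), and HP1c with library size alone (0.08) and in each limma-trend fit (0.37). Over the 17 alternatives the lowest value of HP1a was -0.27, with scaling to germline genes. The difference in the share of HP1a kept its sign with expected counts and with 1 library left out.

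The replicate number is shared between the groups but marks no stated batch; across genes the gap between replicates 1 and 2 correlated at 0.46 between the groups. With the replicate number as a block 3713 genes passed and 5 of the 10 genes rose (Hmr, HP4, HP1b, HP5 and Su(var)3-7). An offset from the implied lengths was added after seeing the data and left 2 higher and 2437 genes called. With 1 library left out, the lone library of a group is taken to vary like the others. Depth limits Lhr most, with 74 counts in control 1.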

Other observations

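Telomeres and centromeres, where HP1a is also bound, have their own proteins, and some of their genes were higher in the knockdown-labelled libraries. Of 4 tested telomere cap genes 2 rose and 0 fell, beside 11.8% of all tested genes higher and 16.1% lower, with a median log2 fold change of 0.52. HipHop had 195 and 182 TPM in the knockdown-labelled libraries and 48.6 and 73.9 TPM in the controls (log2 fold change 1.10, SE 0.21, adjusted p = 0.0273). The gene cav, which encodes the HP1a-binding cap protein HOAP, had 82.0 and 83.1 TPM in the knockdown-labelled libraries and 21.4 and 36.7 TPM in the controls (log2 fold change 0.96, SE 0.25, adjusted p = 0.0454). The cap genes moi (0.08, adjusted p = 0.637) and ver (-0.34, adjusted p = 0.383) did not pass.

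Of 9 tested genes for satellite and centromere binders and other heterochromatin proteins, 4 rose and 0 fell, with a median of 0.57. Over all tested genes 11.8% rose and 16.1% fell. The log2 fold change was negative for 2 of the 9, the satellite binder gene D1 (-0.51, adjusted p = 0.0522) and Trl (-0.26, adjusted p = 0.186). DESeq2 called 7 of the 9 higher and 1 lower, beside 19.0% and 18.4% of all genes it tested. The gene cid, for the centromeric histone H3 variant, had 98.0 and 92.8 TPM in the knockdown-labelled libraries and 15.5 and 35.1 TPM in the controls (log2 fold change 1.39, SE 0.37, adjusted p = 0.0474). E(var)3-9 (1.13), Odj (0.67) and the satellite binder gene prod (0.56) rose as well. As for the HP1 genes, 0 of the members of these lists passed without knockdown-labelled 1 or without knockdown-labelled 2 with edgeR; at an unadjusted p under 0.05, 2 of the cap genes were higher in both of these fits, and 6 and 4 of the other 9, beside 11.5% and 12.1% of all genes.

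Some markers of other cell types moved as well. Of 6 tested hemocyte genes 2 rose (Pxn, 1.74, and crq, 0.99) and 0 fell, beside 11.8% of all tested genes higher and 16.1% lower. Hml (1.63, adjusted p = 0.0761) and srp (-0.93, adjusted p = 0.0661) did not pass. Of 10 muscle genes 0 rose and 2 fell (bt, -1.47, and sls, -1.30). Of 19 eggshell genes 0 rose and 2 fell (Vm26Ab, -3.51, and fs(1)N, -0.73). These falls were near the share of all tested genes that fell. The median log2 fold change of the eggshell genes was -1.5 with all 4 libraries and 0.61 without control 2. For the muscle genes it was -0.77 and -1.22. Of 6 fat body genes 2 had enough counts to be tested: Lsp1gamma fell (-2.38) and apolpp did not pass (2.27, adjusted p = 0.0549). Lsp1gamma rested on few reads, 4 and 26 counts in the knockdown-labelled libraries and 44 and 46 in the controls. The part of these cell types in the values of the HP1 genes was not tested.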
